A study of Mus musculus with 72 samples.

Results

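The 44 interferon response genes described here are a named list of antiviral, sensing, signalling and antigen-processing genes, and each was found in the gene count table by its Ensembl identifier. They are 44 of 51912 genes in that table, and all 44 were among the 19362 genes with enough counts to be tested. The 72 liver libraries, each labelled as a separate sample, came from mice of the inbred strains DBA/2J and C57BL/6J, male (M) and female (F). From 10 weeks of age they were kept for 13 weeks on 1 of 3 diets, labelled Control, Medium Protein and Low Protein, so that strain, sex and diet gave 12 groups of 6 livers, taken at 23 weeks after a 16 h fast. No genotype or agent beyond strain and diet is given in the labels, and the protein content of the diets is not given in the sources used here.

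Interferons are secreted proteins that a cell releases when its sensors meet foreign or misplaced nucleic acid. They bind receptors on neighbouring cells, and the receptors act through JAK kinases and transcription factors, STAT2 and IRF9 among them, which enter the nucleus and switch on the interferon-stimulated genes. The factor that holds STAT2 and IRF9 binds a short promoter element called the ISRE, and a second element, called GAS, serves the response to interferon gamma. In uninfected tissue the same genes are read at a low, steady level. The RNA is from whole liver, so fewer cells of a type and less RNA per cell cannot be told apart.

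Library totals lay between 26.9 M and 38.4 M counts, with a median of 32.4 M (mega) counts. The summed level of 6 hepatocyte markers lay between 36030 and 84991 CPM (counts scaled to the normalised library size) across the libraries. The lowest value was in the C57BL/6J F Low Protein group, whose median was 71337 CPM. Ribosomal-like RNA took over 5% of counts in 4 libraries, all from males: 2 of C57BL/6J on Control, 1 of C57BL/6J on Medium Protein and 1 of DBA/2J on Control. Plate-like position codes in the labels run in the order of the groups, so position and group cannot be told apart.

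The upstream sequences of several members carried the elements named above, and 6 are shown as examples. Cmpk2 and Irf9, whose windows held neither element, are not shown. RefSeq windows of 300 bases (GRCm38.p6, 250 before to 50 after the start) were at hand for 33 of the 44 members. They are from that reference build alone, and the sequences of DBA/2J were not examined. The ISRE letters TTTCNNTTTC, searched on both strands, were present in 18 of 33 members (54.5%), against 3.99% of 27025 genes with a window. The GAS letters TTCNNNGAA were present in 7 of 33 (21.2%), against 9.55% of all genes. Both were present in 4 members and neither in 12. Of members with a window, the ISRE letters were in 9 of 14 that fell on Low Protein against Control in C57BL/6J males, as given below. They were in 9 of 19 that were not called there. The sequences below run 5′ to 3′ on the strand of the gene, with ISRE and GAS matches in capitals. Matches on the opposite strand read as GAAANNGAAA for the ISRE, and neighbouring matches can overlap.
Ifit1, chr19:34640639-34640938, plus strand: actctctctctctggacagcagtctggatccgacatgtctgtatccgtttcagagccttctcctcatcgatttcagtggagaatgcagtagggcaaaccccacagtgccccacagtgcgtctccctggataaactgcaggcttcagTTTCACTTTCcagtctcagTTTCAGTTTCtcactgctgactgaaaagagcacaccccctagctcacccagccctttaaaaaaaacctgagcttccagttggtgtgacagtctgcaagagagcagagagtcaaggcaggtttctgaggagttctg
Isg15, chr4:156200769-156201068, minus strand: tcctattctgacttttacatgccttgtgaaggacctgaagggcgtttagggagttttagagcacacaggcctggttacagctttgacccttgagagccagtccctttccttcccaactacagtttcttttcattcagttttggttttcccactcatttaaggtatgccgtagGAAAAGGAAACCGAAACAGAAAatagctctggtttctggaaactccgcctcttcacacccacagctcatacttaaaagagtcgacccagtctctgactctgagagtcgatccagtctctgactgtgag
Rsad2, chr12:26456403-26456702, minus strand: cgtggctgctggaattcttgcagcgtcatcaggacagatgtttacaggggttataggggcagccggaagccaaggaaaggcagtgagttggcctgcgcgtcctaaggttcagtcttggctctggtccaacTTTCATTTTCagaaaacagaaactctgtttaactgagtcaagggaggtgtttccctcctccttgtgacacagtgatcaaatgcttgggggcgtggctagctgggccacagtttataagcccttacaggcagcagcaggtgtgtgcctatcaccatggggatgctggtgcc
Irgm1, chr11:48871371-48871670, minus strand: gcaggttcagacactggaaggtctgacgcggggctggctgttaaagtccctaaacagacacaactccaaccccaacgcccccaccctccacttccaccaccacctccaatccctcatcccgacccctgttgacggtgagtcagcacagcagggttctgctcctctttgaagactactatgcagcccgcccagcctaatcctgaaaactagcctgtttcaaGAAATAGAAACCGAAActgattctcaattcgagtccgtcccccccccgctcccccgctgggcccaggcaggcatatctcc
Bst2, chr8:71537423-71537722, minus strand: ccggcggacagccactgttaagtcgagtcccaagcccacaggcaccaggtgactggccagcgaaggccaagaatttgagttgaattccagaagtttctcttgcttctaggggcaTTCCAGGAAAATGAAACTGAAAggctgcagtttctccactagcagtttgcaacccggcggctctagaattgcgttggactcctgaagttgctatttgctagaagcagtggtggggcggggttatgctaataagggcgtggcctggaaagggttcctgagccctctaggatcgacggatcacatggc
Oasl1, chr5:114922990-114923289, plus strand: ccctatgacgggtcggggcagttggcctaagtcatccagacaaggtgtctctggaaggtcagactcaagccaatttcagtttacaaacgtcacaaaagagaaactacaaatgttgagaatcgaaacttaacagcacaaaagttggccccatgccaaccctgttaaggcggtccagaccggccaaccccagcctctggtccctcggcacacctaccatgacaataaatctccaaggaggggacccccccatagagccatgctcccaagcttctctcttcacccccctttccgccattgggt
Ifit1 held 2 ISRE matches, which begin 104 and 85 bases before the start. Isg15 held 3 overlapping matches 78, 72 and 66 bases before it, Rsad2 held 1 at 120 bases, and Irgm1 held 2 at 30 and 24 bases. Bst2 held 2 ISRE matches and 1 GAS match that overlap. The Oasl1 window held none of these letters, which says nothing about sites elsewhere.

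Levels differed widely between members. Divided by exon length (GENCODE M21), the mean over all libraries was highest for Iigp1, an immunity-related GTPase, at 56.6 CPM per kb, followed by Ifi27, a small mitochondrial and membrane protein gene, at 54.9 CPM per kb. It was lowest for Oas3, an enzyme that makes 2-5A from ATP when it meets double-stranded RNA, at 0.264 CPM per kb. Group means of Iigp1 ran from 158 to 510 CPM and those of Oas3 from 1.09 to 2.76 CPM, both without correction for length.

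**Figure D1:**
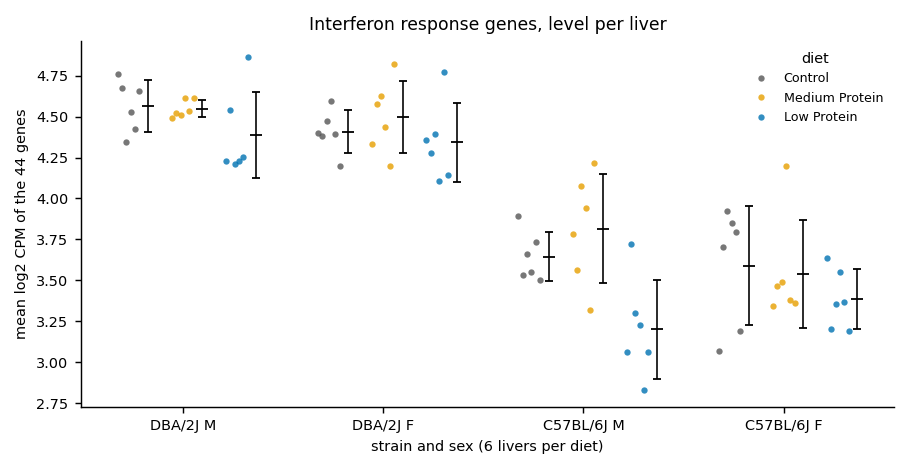
Mean log2 CPM of the 44 interferon response genes (vertical axis) in each of 72 livers (points), by strain and sex (horizontal axis) and diet (colour), with the mean and SD of each group of 6 (bars). The DBA/2J livers lie between 4.11 and 4.86 and the C57BL/6J livers between 2.83 and 4.22, with the C57BL/6J M Low Protein group lowest.

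The plot of the level per liver shows both patterns that the gene tests resolve. The mean log2 CPM of the 44 members was 4.11 to 4.86 in the 36 DBA/2J livers, against 2.83 to 4.22 in the 36 C57BL/6J livers. Only 2 C57BL/6J livers lay above the lowest DBA/2J liver, and 5 DBA/2J livers lay below the highest C57BL/6J liver. In C57BL/6J males the group mean was 3.64 ± 0.15 on Control, 3.82 ± 0.33 on Medium Protein and 3.20 ± 0.30 on Low Protein (SD, n = 6 each). In DBA/2J males it was 4.56 ± 0.16, 4.55 ± 0.05 and 4.39 ± 0.26 on the same diets.

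The Low Protein diet was compared with Control to ask whether liver expression answers to less dietary protein. In C57BL/6J males, 17 of the 44 members fell and none rose (edgeR quasi-likelihood test, called where the Benjamini-Hochberg value, computed over the 19362 genes, is under 0.05). The 44 were chosen with earlier results of these data known. Over all genes, 9.67% were called in this comparison, 5.66% as lower and 4.01% as higher. The median log2 difference of the members was -0.43, against 0.01 for all genes tested, and 37 of 44 were negative. Members tend to be high or low together in a liver, so here and below their signs are not separate results. The groups did not overlap for 8 members, all lower on Low Protein: Irf9, Ifit1, Oasl1, Rsad2, Cmpk2, Mx1, Igtp and Irgm1. Of all genes tested, 3.03% were likewise lower in every Low Protein liver than in every Control liver, and 1.71% higher. In the authors' deposited table, 18 members were called in this comparison, all lower, and 17 of them were also called here.

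Oasl1, an OAS-like protein that in mouse is known to restrain translation of Irf7, changed most. It stood at 2.59, 4.16 and 5.63 CPM (lowest, median and highest of 6 livers) on Low Protein, against 8.14, 11.4 and 14.6 CPM on Control. No Low Protein liver reached the lowest Control liver. The log2 difference was -1.47 ± 0.21 (SE), or 2.76-fold lower, with an edgeR adjusted p of 8.34e-07. Of the 5 other members of the OAS family none passed the test: Oasl2 was at 0.01, Oas1a at 0.11, Oas1g at -0.42, Oas2 at 0.35 and Oas3 at 0.29 on the log2 scale.

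Among the sensors, Ifih1 (MDA5) and Ddx58 (RIG-I), which recognise viral RNA in the cytoplasm, fell, and 2 of 4 members of this group were called. Ifih1 stood at 22.9, 28.4 and 35.9 CPM on Low Protein and 34.3, 40.8 and 43.0 CPM on Control, so that the groups overlapped slightly, and its log2 difference was -0.48 ± 0.10 (edgeR adjusted p = 0.000515). Ddx58 fell by 0.36 ± 0.10 on the log2 scale (edgeR adjusted p = 0.0171). Dhx58 (LGP2), a relative that tunes both, was at -0.04 and Zbp1, a sensor of Z-form nucleic acid, at -0.23, neither past the test.

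Of the 3 transcription factors, Irf9 and Stat2, which encode parts of the factor that binds the ISRE, fell. Irf9 changed by -0.44 ± 0.12 (edgeR adjusted p = 0.00722) and Stat2 by -0.31 ± 0.10 (edgeR adjusted p = 0.0342) on the log2 scale. Irf7, which drives interferon alpha genes, was at -0.50 with an edgeR adjusted p above the threshold. In the ISG15 group, Isg15, a ubiquitin-like modifier, was 1.81-fold lower (log2 -0.85 ± 0.26, edgeR adjusted p = 0.0261). Usp18, which removes ISG15 from proteins, and Herc6, its ligase in mouse, were at -0.51 and -0.15 and did not pass.

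The effector genes gave most of the calls. Ifit1, whose product binds foreign RNA ends and whose promoter with 2 ISRE matches is shown above, stood at 3.83, 6.72 and 11.0 CPM on Low Protein, against 11.3, 15.4 and 18.1 CPM on Control. The highest Low Protein liver lay just under the lowest Control liver, and the log2 difference was -1.20 ± 0.26 (2.29-fold lower, edgeR adjusted p = 0.00127). Its neighbour Ifit3 fell by 0.79 ± 0.24 on the log2 scale (edgeR adjusted p = 0.0241). Ifit3b, a near-identical copy with which reads may be shared, was at -0.71 and Ifit2 at -0.08, neither called.

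Rsad2 (viperin) makes a chain-terminating nucleotide, and Cmpk2, its head-to-head neighbour, is a nucleotide kinase. Rsad2 stood at 5.62, 8.60 and 11.5 CPM on Low Protein and 13.0, 17.0 and 19.6 CPM on Control (log2 -0.92 ± 0.20, edgeR adjusted p = 0.00119). Cmpk2 stood at 2.82, 3.78 and 5.11 CPM on Low Protein and 5.34, 6.88 and 8.47 CPM on Control (log2 -0.83 ± 0.19, edgeR adjusted p = 0.00212). All 6 Low Protein livers were below all 6 Control livers for both genes of the pair.

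Mx1 and Mx2 are genes of the family of dynamin-like Mx GTPases, and whether their products work in these strains was not examined. Mx1 stood at 0.728, 1.08 and 1.45 CPM on Low Protein, against 1.73, 2.16 and 2.81 CPM on Control (log2 -1.03 ± 0.23, edgeR adjusted p = 0.0015). Mx2 stood at 3.37, 4.54 and 7.51 CPM on Low Protein, against 5.45, 8.28 and 10.5 CPM on Control (log2 -0.79 ± 0.17, edgeR adjusted p = 0.00113). The Mx1 groups were apart, and those of Mx2 overlapped. Rtp4, a chaperone-like protein, also fell (log2 -0.70 ± 0.18, edgeR adjusted p = 0.00652). The other 6 members among the diverse effectors did not pass the test, and Ifi27 and Bst2, the tetherin that holds budding virions, had positive values of 0.38 and 0.31.

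Of the 7 interferon-inducible GTPases, which coat and break up pathogen vacuoles, Ifi47, Igtp and Irgm1 fell. Irgm1 stood at 24.8, 29.7 and 39.5 CPM on Low Protein, against 41.9, 45.2 and 62.3 CPM on Control, without overlap (log2 -0.67 ± 0.15, edgeR adjusted p = 0.00214). Ifi47 fell by 0.93 ± 0.23 (edgeR adjusted p = 0.00475) and Igtp by 0.97 ± 0.31 (edgeR adjusted p = 0.0374) on the log2 scale. The guanylate-binding proteins Gbp2, Gbp3 and Gbp7 were at -0.49, -0.76 and -0.72 and were not called. Tap1, which pumps peptides to MHC class I, fell (log2 -0.78 ± 0.20, edgeR adjusted p = 0.0049), and the immunoproteasome subunits Psmb8 and Psmb9 did not pass. None of the 3 genes of the ADP-ribosylation complex, Parp9, Parp14 and Dtx3l, was called.

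**Figure D2:**
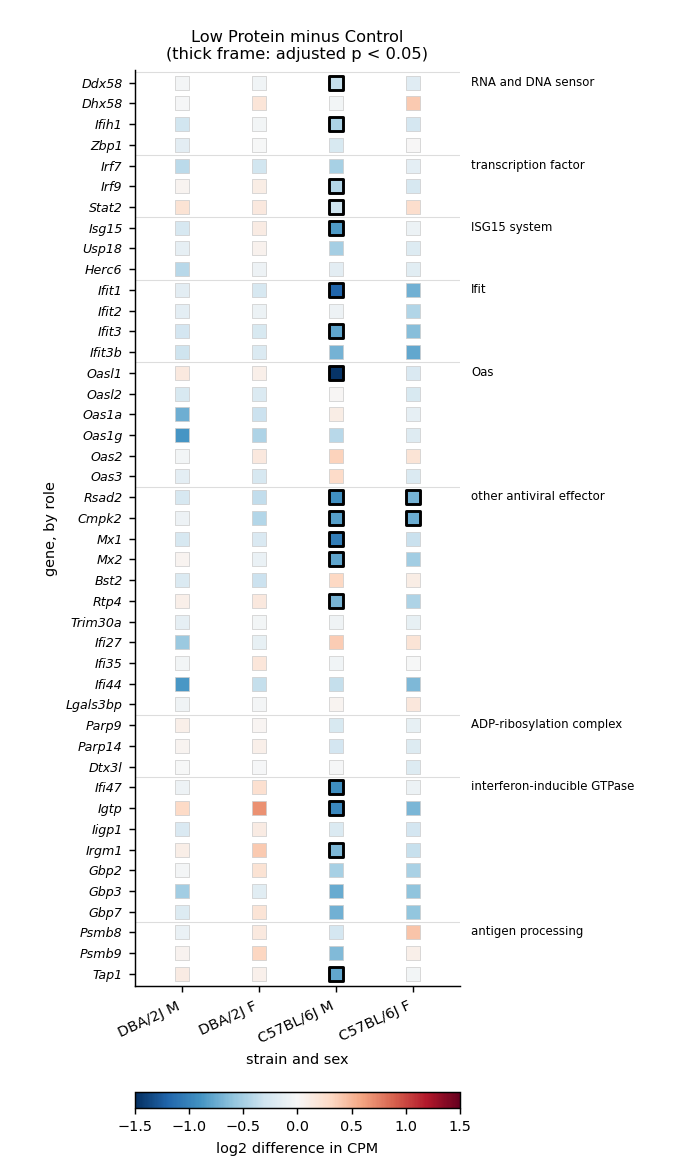
Log2 difference of each of the 44 genes (rows, by role) on Low Protein relative to Control, in each strain and sex (columns), with blue for lower on Low Protein and a thick frame for an adjusted p below 0.05. Of the calls, 17 are in C57BL/6J males, 2 in C57BL/6J females and 0 in DBA/2J mice.

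How libraries are scaled bears on the size of this result. With library totals in place of TMM factors, the median of all genes in this comparison moved to 0.26 on the log2 scale, and 9 members were then called lower and 4 higher (Oas2, Bst2, Ifi27 and Lgals3bp). Totals include ribosomal-like RNA. It took 12.6% and 34.9% of counts in Control replicates 1 and 6 of C57BL/6J males, and at most 2.53% in their Low Protein livers. Its part in this shift was not tested. Ifit1, Oasl1, Rsad2, Cmpk2, Mx1, Mx2, Ifi47, Irgm1 and Tap1 were lower and called under all 7 settings that used the whole series. Without the 4 libraries rich in ribosomal-like RNA, 15 members were called, all lower.

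Genes of the pathway outside the 44 were read from separate lists. Like the 44, these lists were chosen with earlier results of these data known. Of 57 other interferon-stimulated genes, 11 fell and 0 rose in C57BL/6J males, with a median log2 difference of -0.22. The shares of all genes were 5.66% lower and 4.01% higher. Parp12 (log2 -0.59 ± 0.09, edgeR adjusted p = 5.74e-06) and Apol9b (log2 -0.99 ± 0.18, edgeR adjusted p = 6.92e-05) had the smallest p, and reads of Apol9b may be shared with its close copy Apol9a. Of 14 signalling genes and regulators, Irf2, Irf3 and Nlrc5 fell, and of 12 genes of the MHC class I pathway, B2m, H2-K1 and H2-Q7 fell. Of 6 interferon receptor genes and 11 sensing genes edgeR called 0, with 3 and 0 at an unadjusted p below 0.05. Of 9 interferon genes, Ifnk alone had enough counts to be tested and was not called (edgeR adjusted p = 0.306), and the other 8 summed to between 0 and 79.5 counts each over all 72 libraries.

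Markers of other cells were followed beside this comparison. Of 12 macrophage and Kupffer cell markers edgeR called 0, with 1 at an unadjusted p below 0.05, and their summed level was 145 to 366 CPM on Low Protein and 160 to 352 CPM on Control. Of 11 tested T and NK cell markers edgeR called 0, with 1 at an unadjusted p below 0.05, and all 14 on the list summed to 2.97 to 4.33 CPM on Low Protein and 3.35 to 8.03 CPM on Control. Of 6 red blood cell markers, 3 rose (Hba-a2, Hbb-bs and Hbb-bt), with sums of 168 to 478 CPM on Low Protein and 126 to 259 CPM on Control. The part of blood content in the result was not tested.

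In C57BL/6J females, 2 of 44 members fell on Low Protein, against 3.21% of all genes called (1.76% as lower). Cmpk2 stood at 2.44, 3.27 and 4.69 CPM on Low Protein and 3.14, 5.81 and 7.41 CPM on Control (log2 -0.74 ± 0.19, edgeR adjusted p = 0.0191). Rsad2 stood at 7.22, 9.92 and 14.1 CPM on Low Protein and 11.8, 16.5 and 23.0 CPM on Control (log2 -0.70 ± 0.20, edgeR adjusted p = 0.0335). The groups of both genes overlapped, and leaving out 1 liver at a time gave between 0 and 7 calls. There were 0 without Control replicate 4 or 5 or Low Protein replicate 6, 1 without Control replicate 2 or Low Protein replicate 2 or 5, 4 without Low Protein replicate 1 and 7 without Control replicate 1. The median of the 44 members was -0.20, against 0.01 for all genes, and 35 of 44 were negative. By edgeR, 18 members had an unadjusted p below 0.05, against 26 in C57BL/6J males. Cell markers varied widely in this Low Protein group. Summed hepatocyte markers ran from 36030 to 83292 CPM, against 62418 to 74788 CPM on Control. Macrophage and Kupffer cell markers ran from 275 to 1129 CPM, against 235 to 621 CPM on Control. The part of cell content here, and in the comparison of the sexes, was not tested.

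In DBA/2J mice no member was called on Low Protein against Control. In males 0.093% of all genes were called (0.0465% in each direction), 7 members had an unadjusted p below 0.05, limma-voom called 1 (Ifi44, -0.90, adjusted p = 0.0397) and DESeq2 called 0. Without Low Protein replicate 6, edgeR called 1. In females 0.78% of all genes were called (0.573% higher and 0.207% lower), 4 members had an unadjusted p below 0.05, and limma-voom and DESeq2 called 0. The median log2 difference of the members was -0.14 in males and -0.03 in females.

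Whether the Low Protein change differed between groups was tested directly. Between the strains in males (DBA/2J minus C57BL/6J), 5 of 44 members were called, 4 higher and 1 lower, against 2.81% of all genes (1.96% higher and 0.857% lower). Oasl1 differed most, by 1.62 ± 0.28 on the log2 scale (edgeR adjusted p = 0.00033): in DBA/2J males it stood at 14.0, 20.7 and 23.0 CPM on Low Protein and 13.1, 18.9 and 21.5 CPM on Control. Stat2 (0.53 ± 0.14, edgeR adjusted p = 0.0276), Irgm1 (0.77 ± 0.22, edgeR adjusted p = 0.0356) and Mx2 (0.83 ± 0.24, edgeR adjusted p = 0.0386) differed in the same direction. Ifi27 differed the other way, by -0.93 ± 0.24 (edgeR adjusted p = 0.0229). It stood at 78.3, 106 and 156 CPM on Low Protein and 131, 167 and 176 CPM on Control in DBA/2J males, and at 32.5, 44.5 and 55.5 CPM and 27.9, 32.0 and 47.7 CPM in C57BL/6J males. Of these 5, Oasl1 alone was called under all 7 settings, and 2 members were called without the libraries rich in ribosomal-like RNA.

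Between the sexes in C57BL/6J (M minus F), 2 of 44 members were called, Oasl1 (-1.24 ± 0.29, edgeR adjusted p = 0.00622) and Stat2 (-0.58 ± 0.14, edgeR adjusted p = 0.0112), both lower, against 4.49% of all genes (2.7% lower and 1.8% higher). Stat2 stood at 30.9, 41.0 and 42.6 CPM on Low Protein and 42.5, 46.9 and 54.1 CPM on Control in males. In females it stood at 34.7, 39.9 and 46.1 CPM on Low Protein and 29.5, 33.1 and 37.4 CPM on Control. For the other 42 members, whether called in males, in both sexes or in neither, the change is not shown to differ between the sexes. No member was called between the sexes of DBA/2J (edgeR; 0% of all genes, 0 members at an unadjusted p below 0.05, 0 by limma-voom and 0 by DESeq2), nor between the strains in females (0.108% of all genes, 0.0723% lower and 0.0362% higher, 5 members at an unadjusted p below 0.05, 0 by limma-voom and 0 by DESeq2).

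**Figure D3:**
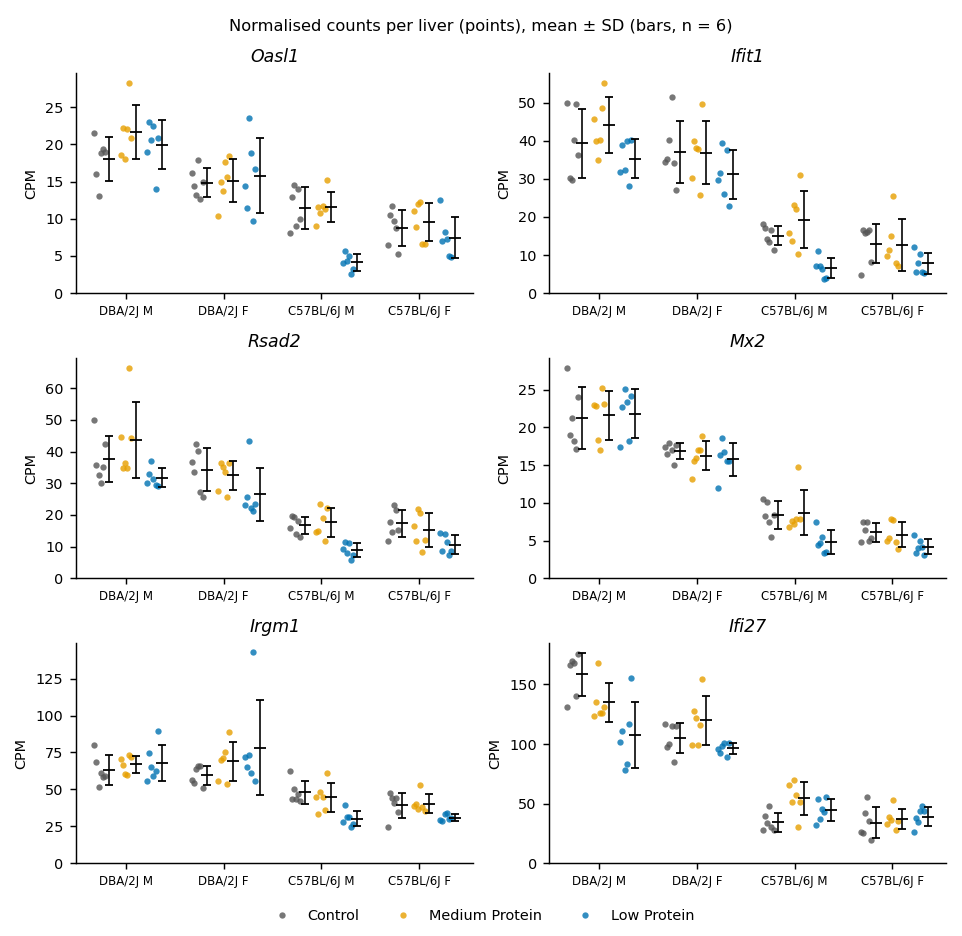
CPM of 6 genes (vertical axes, from 0) in each liver (points), by strain and sex (horizontal axes) and diet (colour), with the mean and SD of 6 livers (bars). By group mean, Oasl1, Ifit1, Rsad2, Mx2 and Irgm1 are lowest in C57BL/6J M Low Protein or C57BL/6J F Low Protein livers, and Ifi27 is high in DBA/2J livers on every diet.

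The Medium Protein diet, an intermediate step, gave no call among the members. In C57BL/6J males 0.362% of all genes were called against Control by edgeR, 6 members had an unadjusted p below 0.05, DESeq2 called 1 (Ifi27) and limma-voom called 0. In C57BL/6J females (0% of all genes), DBA/2J males (0.00516%) and DBA/2J females (0.00516%), 1, 0 and 0 members had an unadjusted p below 0.05 by edgeR, and the other tools called 0. The median of the 44 members on Medium Protein against Control was 0.17 in C57BL/6J males and 0.08 in DBA/2J females. In each of these, 38 of 44 values were positive, against 50.6% and 50.2% of all genes. Single livers can set many of these signs. All 44 members were above their group's median in DBA/2J F Medium Protein replicate 6, and 40 in C57BL/6J M Medium Protein replicate 6. The signs are therefore not separate results. It was -0.04 in C57BL/6J females and -0.03 in DBA/2J males, with 16 and 20 values positive.

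Low Protein was also set against Medium Protein. In C57BL/6J males, 21 of 44 members fell and none rose, against 6.44% of all genes called (4.05% as lower and 2.38% as higher), and all 44 values were negative, with a median of -0.63. Oasl1 stood at 2.59, 4.16 and 5.63 CPM on Low Protein and 8.96, 11.5 and 15.2 CPM on Medium Protein (log2 -1.48 ± 0.21, edgeR adjusted p = 9.49e-07). Ifih1 (-0.66 ± 0.10, edgeR adjusted p = 3.35e-06), Mx1 (-1.40 ± 0.23, edgeR adjusted p = 1.87e-05) and Ifit1 (-1.55 ± 0.27, edgeR adjusted p = 4.38e-05) followed. Irf7, Ifit3b, Psmb9, Parp14, Ifi44, Usp18 and Gbp3 were called here and not against Control, and Ddx58, Stat2 and Igtp were called against Control and not here. Both comparisons use the same Low Protein livers. With these groups fitted alone, 9 members were called, and with library totals 14, all lower. In C57BL/6J females (1.89% of all genes, 0.894% higher and 0.997% lower), DBA/2J males (0%) and DBA/2J females (0.0362%, 0.0207% higher and 0.0155% lower) edgeR called no member, and 11, 4 and 2 had an unadjusted p below 0.05. DESeq2 and limma-voom also called 0 in these 3 comparisons.

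Between the strains most members differed. Averaged over the 3 diets, 39 of 44 members were higher and 3 lower in DBA/2J than in C57BL/6J males, against 25.1% and 26% of all genes (51% in either direction). In females 38 were higher and 2 lower, against 24.1% and 25.6% of all genes. The median log2 difference of the members was 0.93 in males and 0.96 in females, against -0.01 for all genes in each sex. Over the 18 livers of a strain and sex, 12 members in males and 7 in females did not overlap between the strains, all higher in DBA/2J. Of all genes tested, 2.83% were likewise apart and higher in DBA/2J males (2.21% lower), and 2.66% in DBA/2J females (2.18% lower). With library totals 41 were higher and 3 lower in males, and 39 and 2 in females.

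Mx2 stood at 17.0, 22.8 and 27.9 CPM (lowest, median and highest of 18 livers) in DBA/2J males, against 3.37, 7.51 and 14.7 CPM in C57BL/6J males (log2 1.61 ± 0.10, edgeR adjusted p = 8.06e-23). In females it stood at 12.0, 16.5 and 18.8 CPM in DBA/2J and 3.02, 4.89 and 7.85 CPM in C57BL/6J (log2 1.62 ± 0.10, edgeR adjusted p = 7.99e-23). In the sex-matched comparison, each DBA/2J liver was above each C57BL/6J liver of its sex. Ifi27 stood at 78.3, 131 and 176 CPM in DBA/2J males and 27.9, 44.5 and 69.5 CPM in C57BL/6J males (log2 1.59 ± 0.10, edgeR adjusted p = 1.26e-21), and its difference in females was 1.54 ± 0.10 (edgeR adjusted p = 6.73e-21).

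Cmpk2 stood at 13.1, 16.2 and 26.1 CPM in DBA/2J males and 2.82, 6.11 and 9.67 CPM in C57BL/6J males (log2 1.52 ± 0.11, edgeR adjusted p = 1.1e-19). In females the Cmpk2 ranges met, at 8.16 to 17.5 CPM in DBA/2J and 2.44 to 9.38 CPM in C57BL/6J (2.84-fold higher, edgeR adjusted p = 2.44e-19). Ifi35, a leucine-zipper protein released as a danger signal, differed less but with little spread. It stood at 20.1, 23.1 and 26.8 CPM in DBA/2J males and 9.89, 12.3 and 15.7 CPM in C57BL/6J males (log2 0.88 ± 0.05, edgeR adjusted p = 9.98e-25), and differed by 0.72 ± 0.05 in females (edgeR adjusted p = 3.4e-20). The largest difference was that of Ifi44, at 4.17-fold in males and 3.51-fold in females.

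By role, the strain difference took in nearly every group. All 4 Ifit genes, all 6 OAS genes, all 3 of the ISG15 group, all 3 transcription factors and all 3 antigen-processing genes were higher in DBA/2J in both sexes. The ADP-ribosylation complex was mixed. Parp14 was higher in DBA/2J in both sexes (log2 0.56 ± 0.07 in males and 0.66 ± 0.07 in females, edgeR adjusted p = 1.19e-10 and 3.91e-13). Parp9 was lower in DBA/2J in both sexes (log2 -0.20 ± 0.05 in males and -0.27 ± 0.05 in females, edgeR adjusted p = 0.000795 and 1.55e-05), and its partner Dtx3l, transcribed from the opposite side of the same start region, was lower in males (log2 -0.24 ± 0.06, edgeR adjusted p = 0.000195). Bst2 was lower in DBA/2J as well, at 12.6, 18.8 and 22.6 CPM against 17.4, 25.5 and 42.4 CPM in C57BL/6J males (log2 -0.51 ± 0.09, edgeR adjusted p = 4.87e-06). In females Bst2 differed by -0.75 ± 0.09 (edgeR adjusted p = 3.97e-10).

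**Figure D4:**
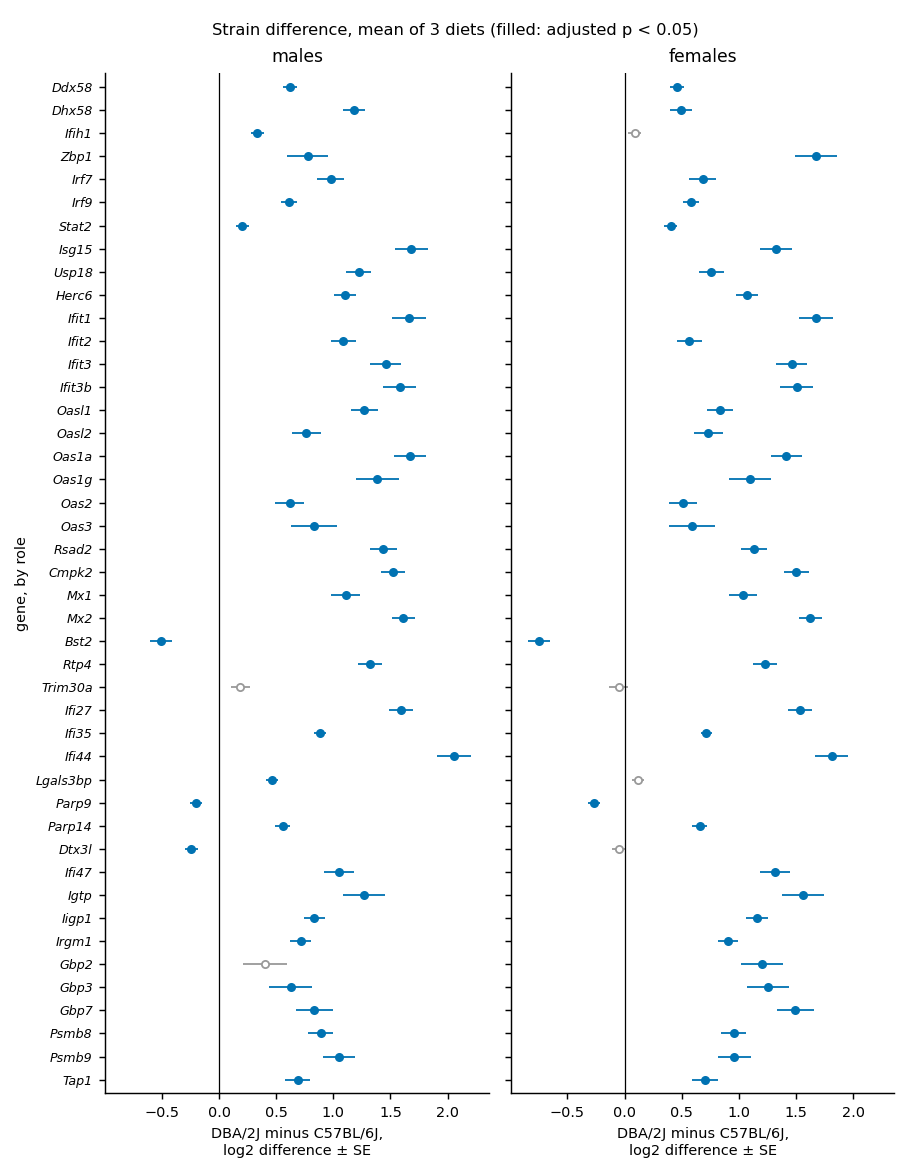
Log2 difference between DBA/2J and C57BL/6J livers, averaged over the 3 diets, with its SE (horizontal axis), for each of the 44 genes (rows, by role) in males (left) and females (right), filled where the adjusted p is below 0.05. Most genes lie right of 0 (39 higher in males and 38 in females), and Bst2 and Parp9 lie left of it in both panels.

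Other interferon-stimulated genes were also called higher in DBA/2J more often than lower. Of 57 other interferon-stimulated genes, 34 were higher and 8 lower in DBA/2J males, and 37 and 10 in DBA/2J females. The shares of all genes were 25.1% higher and 26% lower in males, and 24.1% and 25.6% in females. Of 12 macrophage and Kupffer cell markers, 1 was higher and 1 lower in males, 0 higher and 5 lower in females, with sums of 205 to 553 CPM in DBA/2J and 145 to 366 CPM in C57BL/6J males. The macrophage sums in females were 226 to 489 CPM in DBA/2J and 235 to 1129 CPM in C57BL/6J. The part of cell content in the strain difference was not tested. The reference used for alignment is not stated, and whether reads of both strains align to it equally well was not tested.

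Differences between the sexes were smaller and depended on scaling. In DBA/2J, 16 members were higher and 3 lower in males than in females, against 20.7% and 18.5% of all genes, and in C57BL/6J 11 were higher and 3 lower, against 21.2% and 20.8%. With library totals the median of all genes moved to -0.25 in DBA/2J and -0.24 in C57BL/6J on the log2 scale, and the split became 2 higher and 13 lower in DBA/2J and 2 higher and 15 lower in C57BL/6J. Under all 7 settings, Dhx58 and Irf7 were higher and Gbp2, Gbp3 and Gbp7 lower in DBA/2J males than in DBA/2J females. In C57BL/6J, Zbp1 and Iigp1 were higher and Usp18, Ifit2 and Trim30a lower in males under all 7.

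Gbp2 stood at 4.88, 6.77 and 11.7 CPM in DBA/2J males and 4.90, 11.7 and 37.99 CPM in DBA/2J females, which overlap (log2 -0.94 ± 0.18, edgeR adjusted p = 2.81e-05). Dhx58 stood at 14.1, 17.1 and 24.8 CPM in DBA/2J males and 9.41, 11.8 and 17.7 CPM in DBA/2J females (log2 0.51 ± 0.09, edgeR adjusted p = 7.43e-06). Iigp1 stood at 191, 252 and 385 CPM in C57BL/6J males and 128, 170 and 256 CPM in C57BL/6J females (log2 0.59 ± 0.09, edgeR adjusted p = 3.46e-07). Zbp1 differed by 0.67 ± 0.18 between C57BL/6J males and females (edgeR adjusted p = 0.00224). Mx2 and Ifi35 in C57BL/6J, and Ifi35 and Lgals3bp in DBA/2J, were called higher in males with TMM and were not called with library totals, where Ifi35 in C57BL/6J turned to -0.05.

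The strain difference itself differed between the sexes for 9 members (6 higher and 3 lower), against 20% of all genes (9.86% higher and 10.2% lower), in a comparison chosen after levels were seen. Dhx58 (0.68 ± 0.13, edgeR adjusted p = 0.000104), Lgals3bp (0.35 ± 0.08, edgeR adjusted p = 0.000362), Ifit2 (0.52 ± 0.16, edgeR adjusted p = 0.0111), Ifih1, Usp18 and Oasl1 had the larger strain difference in males. Zbp1 (-0.90 ± 0.25, edgeR adjusted p = 0.00722), Gbp2 and Gbp7 had the larger one in females. Gbp7 was 1.78-fold higher in DBA/2J than in C57BL/6J males and 2.82-fold higher in DBA/2J than in C57BL/6J females. Without DBA/2J F Low Protein replicate 5, 6 members were called, 5 larger in males and 1 (Zbp1) in females. With counts scaled by library totals 7 were called, 4 and 3.

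**Figure D5:**
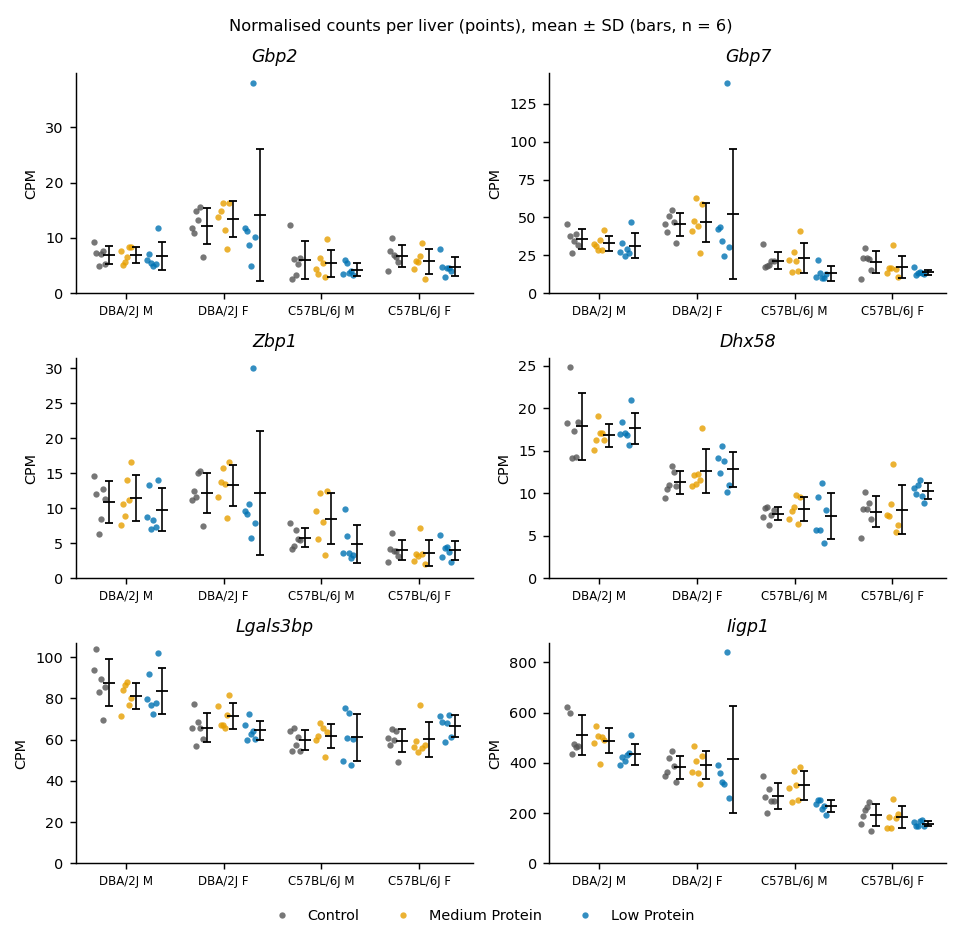
CPM of 6 genes (vertical axes, from 0) in each liver (points), by strain and sex (horizontal axes) and diet (colour), with the mean and SD of 6 livers (bars). In DBA/2J F Low Protein a single liver reaches 37.99 CPM for Gbp2, 139 CPM for Gbp7, 30.0 CPM for Zbp1 and 840 CPM for Iigp1, far above the other 5.

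Within groups the members tended to be high or low together in a liver. In 6 of 72 livers at least 40 of the 44 members were above their group's median, and in 4 livers at most 4 were. The share of all genes above their group's median in these livers was not counted. All 44 were above it in C57BL/6J F Medium Protein replicate 4 and in DBA/2J F Medium Protein replicate 6, and 0 of 44 in C57BL/6J F Control replicate 6. In DBA/2J F Low Protein replicate 5 several GTPase, antigen-processing and sensor genes lay above the other 5 livers of the group. Igtp was at 290 CPM there, against 46.3 to 68.4 CPM in the other 5 livers of the group, and Irgm1 at 143 CPM, against 55.7 to 73.1 CPM. Tap1 was at 61.2 CPM, against 23.5 to 26.7 CPM, Psmb8 at 47.1 CPM, against 15.4 to 22.2 CPM, and Zbp1 at 30.0 CPM, against 5.81 to 10.6 CPM. That liver also had the highest summed macrophage markers (489 CPM, against 250 to 374 CPM) and T and NK cell markers (7.72 CPM, against 3.28 to 6.07 CPM) of its group, and their part was not tested.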

How the data were processed

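The authors deposited expected counts (estimated counts of reads per gene) from RSEM for all 72 libraries, with polyA-selected, stranded libraries run over 2 lanes and merged, per the labels' protocols. For the aligner, caller and build, nothing is stated in the labels or headers. The authors' deposited table of 17575 genes holds log2 fold changes, p-values and an F score (not used) for pairs of diets. edgeR, limma and R 3.4.3 are named per the submitters' processing notes.

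Counts, of which 11.6% were not whole, were rounded, filtered by filterByExpr over 12 groups (19362 of 51912 genes kept), scaled by TMM and fitted in 1 model of the 12 groups with edgeR 4.0.16 (robust quasi-likelihood test, R 4.3.3), for 21 comparisons. Values are CPM, and SEs are the log2 difference divided by the root of the F statistic. Alternatives used limma 3.58.1 (voom), DESeq2 1.42.0, other scalings and filters, fewer groups, and omission of libraries. No libraries were identical, and the highest correlation between libraries was 0.985. Names for 51633 identifiers came from GENCODE M21. The labels name each library as a separate sample, and p-values measure the spread between these livers.

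The 44 members and all lists were chosen with earlier results of these data known. Full statistics are given for the 8 members of smallest p in the Low Protein comparison of C57BL/6J males, for up to 4 called members elsewhere, and for those that complete a role.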

Additional observations from a re-analysis of the deposited data

Results flagged for a closer look

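In 25 of 228 sets of 6 livers, the highest liver stood apart from the other 5 by Dixon's criterion. Chance passes it in about 1 of 20 for a single set of normally spread values. These sets share livers and genes that move together, and single genes were taken as CPM without logs. The count of 25 therefore cannot be set against that rate. In DBA/2J F Low Protein replicate 5 these were Gbp2 (37.99 CPM), Gbp7 (139 CPM), Iigp1 (840 CPM), Irgm1 (143 CPM) and Zbp1 (30.0 CPM). In C57BL/6J F Medium Protein replicate 4 they were the mean log2 CPM of the 44 genes (4.20), Cmpk2 (9.38 CPM), Gbp7 (31.5 CPM), Irgm1 (53.3 CPM), Lgals3bp (77.0 CPM) and Zbp1 (7.201 CPM). In DBA/2J F Medium Protein replicate 6 they were Dhx58 (17.7 CPM) and Ifi35 (23.0 CPM), and in replicate 3 of that group Mx1 (6.41 CPM). In DBA/2J F Low Protein replicate 3 it was Rsad2 (43.3 CPM). In DBA/2J M Medium Protein they were Cmpk2 (26.1 CPM) and Rsad2 (66.4 CPM) in replicate 5 and Ifi27 (168 CPM) in replicate 3. In DBA/2J M Low Protein replicate 6 they were Gbp2 (11.7 CPM) and Ifit2 (13.8 CPM). In C57BL/6J M Low Protein replicate 2 they were Gbp7 (22.1 CPM) and Ifit2 (5.39 CPM). The rest were Gbp7 in C57BL/6J M Control replicate 1 (32.8 CPM), Mx2 in C57BL/6J M Medium Protein replicate 5 (14.7 CPM) and Gbp2 in C57BL/6J F Low Protein replicate 1 (8.04 CPM).

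The Low Protein change differed by a direct test between males and females of C57BL/6J for Oasl1 (-1.24) and Stat2 (-0.58). Between DBA/2J and C57BL/6J males it differed for Oasl1 (1.62), Mx2 (0.83), Irgm1 (0.77), Stat2 (0.53) and Ifi27 (-0.93). The strain difference differed between males and females for Dhx58 (0.68), Ifit2 (0.52), Usp18 (0.46), Oasl1 (0.44), Lgals3bp (0.35), Ifih1 (0.25), Gbp7 (-0.66), Gbp2 (-0.80) and Zbp1 (-0.90). All are log2 values. Between the sexes of C57BL/6J, 2 of 44 members were called, near the 4.49% of all genes. Between the strains in males 4 were higher and 1 lower, against 2.81% of all genes in either direction. For the strain difference 6 were higher and 3 lower, together near the 20% of all genes called in either direction.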

How the results depend on the processing

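Counts of members called moved by over 1.5 times in these cases, and the cause was not tested except where fewer samples enter by construction. For Low Protein against Control in C57BL/6J females (2 members), there were 0 with library totals, 1 without the filter on low counts, 1 with limma-voom, 4 with DESeq2 and 0 with the compared groups alone. In DBA/2J males limma-voom called 1, and for Medium Protein against Control in C57BL/6J males DESeq2 called 1. For Low Protein against Medium Protein in C57BL/6J males (21), the compared groups alone gave 9. For the sex difference of the Low Protein change in C57BL/6J (2), library totals gave 1. For its strain difference in males (5), library totals, no filter and omission of the libraries rich in ribosomal-like RNA gave 2 each. For males against females, no filter gave 9 in C57BL/6J (14), and the Control diet alone, with fewer livers, gave 6 in C57BL/6J and 7 in DBA/2J (19). For the sex difference of the strain effect (9), no filter gave 5. Ifi35 in C57BL/6J males against females turned to -0.048 with library totals (edgeR adjusted p = 0.481). Library totals also changed the split of higher and lower calls in the male Low Protein and both sex comparisons, as given with those results.

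Leaving out each liver in turn gave 12 to 22 calls for Low Protein against Control in C57BL/6J males, 0 to 7 in C57BL/6J females, 0 to 1 in DBA/2J males and 0 to 0 in DBA/2J females. In C57BL/6J males the 8 members given in full kept their call in all 12 omissions, with a highest edgeR adjusted p of 0.0112. RLE scaling left all 21 counts within 1.5 times. Omission of the ribosomal-rich libraries or of DBA/2J F Low Protein replicate 5 or C57BL/6J F Medium Protein replicate 4, and the test of strain by sex, were chosen after seeing the data. Without the last of these livers, 11 members were called in that test. No paired analysis of the diets was possible because no number that opens the titles recurs between diets within a strain and sex, and the labels do not say what that number marks. In 6 cases 2 livers of 1 group share it. Without the second liver of each such pair, the calls were 1 for Low Protein against Control in C57BL/6J females (Rsad2 at an edgeR adjusted p of 0.0742), 1 for the sex difference of the Low Protein change in C57BL/6J (Stat2 at 0.0508) and 3 for its strain difference in males (Irgm1 at 0.11), and the other 18 counts stayed within 1.5 times. The numbers recur between males of both strains and between both sexes of C57BL/6J. With the number as a replicate block and the compared groups alone, 42 members were called between the strains in males, as without it, and 6 between the sexes in C57BL/6J. Of the pairs that share a number, 3 of 19 and 1 of 17 had deviations from their group means that correlated over 0.1, and 5 of 34 and 1 of 30 livers correlated best with their own number. These settings were also chosen after seeing the data. Oas3, at group means of 1.09 to 2.76 CPM, had an SE of 0.37 on the log2 scale for Low Protein against Control in C57BL/6J males.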

Other observations

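Single genes outside the 44 differed between the strains by more than most members did. Xaf1, an interferon-stimulated gene linked to cell death, was higher in DBA/2J by 2.60 ± 0.09 on the log2 scale in males (edgeR adjusted p = 8.7e-36) and by 2.28 ± 0.09 in females (edgeR adjusted p = 5.33e-33). On Control its values were 22.1, 27.1 and 29.3 CPM (lowest, median and highest of 6 livers) in DBA/2J males, against 3.72, 4.50 and 5.14 CPM in C57BL/6J males. Ifi213, of the family of nuclear DNA-binding interferon-inducible proteins, went the other way, at 0.0294, 0.114 and 0.205 CPM in DBA/2J males and 1.70, 2.14 and 3.73 CPM in C57BL/6J males on Control (log2 -4.44 ± 0.25 over the 3 diets, edgeR adjusted p = 2.93e-25).

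The classical MHC class I gene H2-K1 was lower in DBA/2J males than in C57BL/6J males (log2 -1.44 ± 0.06, edgeR adjusted p = 8.32e-34) and H2-Q7 likewise (log2 -1.57 ± 0.10, edgeR adjusted p = 5.66e-22), while Tap2 was higher (log2 0.76 ± 0.09, edgeR adjusted p = 3.86e-11). Both H2 genes belong to a family of close copies among which reads may be shared. Whether reads of both strains align equally well for these genes, and for Xaf1 and Ifi213, was not tested. Between the sexes, 10 of 57 other interferon-stimulated genes were higher and 16 lower in DBA/2J males than in DBA/2J females. Of all genes, 20.7% were higher and 18.5% lower there. In C57BL/6J, 5 were higher and 24 lower in males than in females, against 21.2% and 20.8% of all genes. These values rest on TMM scaling.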
